A study of Mus musculus with 8 samples.

Results

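The chemokine and chemoattractant receptor genes of macrophages were described as 8 genes: Ccr1, Ccr2, Cx3cr1, Cxcr4, C3ar1, C5ar1, Fpr1 and Fpr2. They were found as the rows of the deposited table whose probe set number is the Entrez gene number of the receptor (12768, 12772, 13051, 12767, 12267, 12273, 14293 and 14289), out of 24012 genes tested. For 7 of them the platform annotation gives the same name. The row of Fpr1 is not listed there and was named through its gene number in a RefSeq table. The cells were primary mouse bone marrow-derived macrophages, grown for 7 days in medium conditioned by L cells, which secrete M-CSF, from wild-type mice aged 8 to 10 weeks. One group of 4 samples was given hepcidin at 10 µg/ml for 1 h, and the other group of 4 was given PBS. All samples shared the same cells and medium, and no genotype or strain beyond wild type is given in the labels. Within each group the titles carry numbers 1 to 4 but do not tell whether a number is an animal or a culture, and the p-values therefore reflect a spread that could be technical. All values below are log2 RMA values, a scale on which 1 unit is a 2-fold difference in array signal, and signals of different genes were not ranked against each other because each probe set has its own response.

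These receptors sit in the cell membrane and couple mainly to the inhibitory G protein Gi, which turns the binding of an attractant into directed movement. CCR2, the receptor for CCL2, brings monocytes out of the marrow and to inflamed tissue, and it is known to decline as monocytes become macrophages. CX3CR1 binds fractalkine and marks patrolling monocytes and many tissue macrophages, CCR1 binds CCL3, CCL5 and related chemokines, and CXCR4 binds CXCL12 and holds immature cells in the marrow. C3AR1 and C5AR1 sense complement fragments, and FPR1 and FPR2 sense formylated peptides of bacteria and mitochondria. Genes of this kind can be switched by inflammatory signals, and the samples allow their levels to be set side by side after 1 h of hepcidin or PBS.

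The promoter windows of 4 of the genes are shown because Ccr2 and Cx3cr1 varied together between arrays, Cxcr4 varied the other way, and Ccr1 alone held a match to the kB motif that NF-kB binds. They run from 250 bases before to 50 bases after the annotated start in RefSeq (GRCm38.p6), 5′ to 3′ on the strand of the gene, and all 8 genes had an entry. Capitals mark matches to the PU.1 core (GAGGAA, a factor of the macrophage lineage) or to the kB motif, on either strand. The windows lie at chr9:124101933-124102232 on the plus strand for Ccr2 and, on the minus strand, at chr9:120068247-120068546 for Cx3cr1, chr1:128592250-128592549 for Cxcr4 and chr9:123968643-123968942 for Ccr1.
Ccr2: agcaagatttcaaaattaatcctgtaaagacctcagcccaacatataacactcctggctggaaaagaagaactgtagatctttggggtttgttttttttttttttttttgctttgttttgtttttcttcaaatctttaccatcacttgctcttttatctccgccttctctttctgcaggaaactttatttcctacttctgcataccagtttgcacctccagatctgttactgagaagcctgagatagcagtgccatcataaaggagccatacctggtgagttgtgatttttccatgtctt
Cx3cr1: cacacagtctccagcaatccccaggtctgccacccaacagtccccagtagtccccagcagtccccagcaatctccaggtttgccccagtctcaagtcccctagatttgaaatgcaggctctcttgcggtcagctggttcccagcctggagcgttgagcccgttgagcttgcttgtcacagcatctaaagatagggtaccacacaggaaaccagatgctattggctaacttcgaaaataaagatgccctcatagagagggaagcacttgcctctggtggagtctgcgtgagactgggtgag
Cxcr4: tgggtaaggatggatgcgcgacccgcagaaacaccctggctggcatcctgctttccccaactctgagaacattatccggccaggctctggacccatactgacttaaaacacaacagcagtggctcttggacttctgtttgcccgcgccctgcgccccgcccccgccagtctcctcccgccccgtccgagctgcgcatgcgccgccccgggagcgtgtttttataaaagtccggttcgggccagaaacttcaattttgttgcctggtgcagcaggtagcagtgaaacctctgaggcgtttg
Ccr1: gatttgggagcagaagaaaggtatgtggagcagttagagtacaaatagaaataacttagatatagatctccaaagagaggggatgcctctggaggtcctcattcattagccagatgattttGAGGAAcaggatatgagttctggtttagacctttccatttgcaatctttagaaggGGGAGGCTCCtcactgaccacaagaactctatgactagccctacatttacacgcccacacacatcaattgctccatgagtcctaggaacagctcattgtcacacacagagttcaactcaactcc
The PU.1 core was found in Ccr1, beginning at base -129, and in Fpr2, beginning at base -19, so in 2 of 8 windows, where 28.3% of the 32851 promoter windows of this table held it. The kB motif, searched on both strands, was found in 1 of 8, in Ccr1 beginning at base -74, where 8.46% of all windows held it. The C/EBP pattern TTGCNNAA was in 0 of 8 and in 10.8% of all windows, and no 2 of the matches overlapped. In base composition the receptor windows were mostly poor in CpG: 7 of 8 had fewer CpG pairs than the median window, which had 7, and Ccr1, Ccr2, Fpr1 and Fpr2 had 1 each. Cxcr4 was the exception with 20 CpG pairs and 59.3% G and C. In the RefSeq gene order Fpr1 and Fpr2 are neighbours on chromosome 17, and 2 protein-coding genes lie between Ccr1 and Ccr2 on chromosome 9.

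Across the array set, medians ran from 4.87 to 4.95. The labelled cell type was checked against its markers: 9 of 10 macrophage marker genes lay above the 90th percentile of background genes, and the list averaged 10.84 to 11.03 on the hepcidin arrays and 10.67 to 11.02 on the PBS arrays. Background here means 28 genes that mark lymphocytes (B, T or NK) or endothelium, with a median level of 3.88 and a 90th percentile of 6.20. Of them Cd28, Kdr and Vwf stood above that percentile, at 10.34, 7.51 and 7.20. A list of 10 NF-kB feedback genes, which also holds the cytokine gene Tnf and the chemokine gene Cxcl2, was taken as context for the treatment. Of these, 9 were higher with hepcidin at an unadjusted p under 0.05 and 0 passed limma's test over all genes. At that unadjusted level 319 of 24012 genes were higher. The list was chosen with earlier results of these data known, so its count is not independent evidence. With the replicate number as a block Cxcl2 of this list passed (adjusted p 0.0405), and with the number as a random term Tnf, Nfkbia, Nfkbie and Nfkbiz did. Among them Tnf, the inflammatory cytokine gene, had 11.67 with hepcidin, against 10.39 with PBS, and Nfkbia, which encodes the inhibitor IκBα, had 10.68 and 9.74 in the same order. Nfkbiz, which encodes the nuclear regulator IκBζ, had 8.37 with hepcidin, against 7.13 with PBS.

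None of the 8 receptor genes changed with hepcidin in limma at an adjusted p of 0.05, where 0% of 24012 genes were called. At an unadjusted p under 0.05 the count was 0 of 8 members as well, against 2.86% of all genes. The mean was higher with hepcidin for 4 members and lower for 4. The median log2 change was 0.04 over the members and 0.00 over all genes (rounded from 0.00095), and the median size of change without regard to sign was 0.10 against 0.06. The groups overlapped for every one of the 8 genes, while 1.88% of all genes had groups without overlap. With the replicate number as a block, again 0 of 8 members passed, against 0.00416% of all genes, which was 1 gene, the chemokine gene Cxcl2. Arrays with the same number deviated together, so the changes of the receptor genes are given within pairs and with that block as well as without it.

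**Figure D1:**
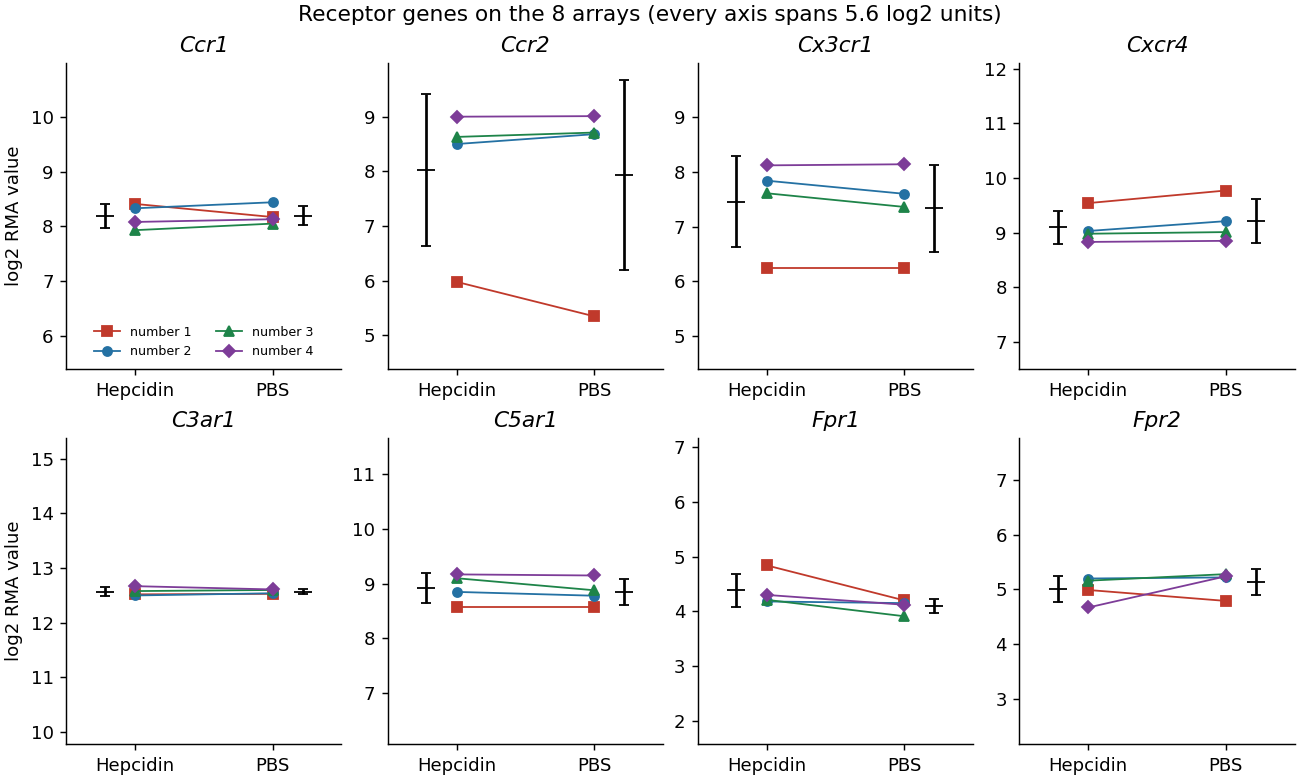
Log2 RMA values of the 8 receptor genes on each array, hepcidin at the left and PBS at the right of each panel, with lines joining arrays of the same number and black bars giving mean ± SD (n = 4 in each group); every vertical axis spans the same length. Ccr2 and Cx3cr1 are low on both arrays numbered 1, and the lines are nearly level for C3ar1.

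Ccr2 had the widest spread of the group. It stood at 5.98, 8.50, 8.63 and 9.0 on the hepcidin arrays numbered 1 to 4, against 5.35, 8.68, 8.71 and 9.01 on the PBS arrays. Both arrays numbered 1 were low and the other 6 lay close together, so the groups overlapped throughout. Group means were 8.03 ± 1.38 with hepcidin and 7.94 ± 1.73 with PBS (SD, n = 4 each). The log2 change was 0.09, with an SE of 0.86 and a 95% interval from -1.83 to 2.01. With the number as a block the SE was 0.13 and the interval ran from -0.22 to 0.40. The pairs gave 0.63, -0.17, -0.08 and -0.02 for numbers 1 to 4, so the sign of the mean was that of pair 1, which held the lowest levels. Without both arrays numbered 1 the change was -0.09, and leaving out number 1 of the hepcidin group alone gave 0.77, of the PBS group alone -0.77, fits in which 1 array lacks its partner. It was also below 0 without hepcidin array 2 (-0.07), 3 (-0.11) or 4 (-0.23).

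Cx3cr1 showed a similar split by number at a smaller size. Its values were 6.24, 7.84, 7.61 and 8.12 on the hepcidin arrays, against 6.24, 7.60, 7.36 and 8.14 on the PBS arrays. Number 1 was low and number 4 high in both groups, and the level on number 1 lay close to the 90th percentile of background genes. Means were 7.46 ± 0.84 with hepcidin and 7.34 ± 0.80 with PBS (SD, n = 4 each), a log2 change of 0.12 with a 95% interval from -0.89 to 1.13, and from -0.07 to 0.31 with the block. Pairs 2 and 3 differed by 0.25 each and pairs 1 and 4 by -0.0038 and -0.016. Leaving out number 1 of the hepcidin group gave 0.52, and of the PBS group -0.24. The change was also below 0 without hepcidin array 2 (-0.01) or 4 (-0.10).

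Ccr1 varied much less than Ccr2 or Cx3cr1 from array to array. Values were 8.41, 8.33, 7.93 and 8.08 with hepcidin, against 8.17, 8.44, 8.05 and 8.13 with PBS. The groups overlapped widely and pair 1 was the only pair above 0, at 0.24. The mean log2 change was -0.01, with a 95% interval from -0.29 to 0.28, and from -0.21 to 0.19 with the block.

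Cxcr4 was lower with hepcidin in 4 of 4 pairs, a pattern shared by 5.92% of all genes. It stood at 9.54, 9.03, 8.98 and 8.83 with hepcidin, against 9.77, 9.21, 9.01 and 8.85 with PBS. Pairs 1 and 2 differed by -0.23 and -0.18 and pairs 3 and 4 by -0.02 each, so the sign was shared while the size was not. The log2 change of -0.11 had a 95% interval from -0.57 to 0.35 without and from -0.29 to 0.06 with the block, and limma's adjusted p was 1.00 both ways (0.999976 and 0.999448). Without the PBS array numbered 1 the change was 0.07, the opposite sign, and it was -0.26 without the hepcidin array numbered 1.

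Of the complement receptor genes, C3ar1 had the narrowest span of the 8 genes, with 12.52, 12.50, 12.58 and 12.67 on the hepcidin arrays, against 12.53, 12.54, 12.60 and 12.61 on the PBS arrays. Its change was -0.0037, with a 95% interval from -0.17 to 0.16, and with the block from -0.16 to 0.16, the narrowest of the 8 both ways. C5ar1 stood at 8.57, 8.85, 9.10 and 9.17 with hepcidin, against 8.57, 8.78, 8.88 and 9.15 with PBS. It was higher in 3 of 4 pairs, by at most 0.22 in pair 3. Its log2 change of 0.08 had a 95% interval from -0.27 to 0.42, and from -0.10 to 0.25 with the block.

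The formyl peptide receptor genes lay under the 90th percentile of the background genes, where RMA values compress differences. Fpr1 was at 4.84, 4.18, 4.21 and 4.30 with hepcidin, against 4.20, 4.15, 3.91 and 4.12 with PBS. It was higher with hepcidin in 4 of 4 pairs, as were 5.7% of all genes, by 0.64, 0.03, 0.30 and 0.18. The mean log2 change of 0.29 was the largest of the 8, with a 95% interval from -0.03 to 0.61 and, with the block, from 0.05 to 0.53. In limma with the block it was the 1 member with an unadjusted p under 0.05 (0.0259), a level that 4.91% of all genes reached, and its adjusted p was 0.966. Without the hepcidin array numbered 1, the highest of the 8, its change was 0.14. Fpr2, the adjacent gene, went the other way in its mean. Its values were 4.99, 5.20, 5.16 and 4.67 with hepcidin, against 4.79, 5.22, 5.28 and 5.24 with PBS. The change of -0.13 had a 95% interval from -0.45 to 0.19, and from -0.41 to 0.15 with the block. It rested mainly on pair 4, at -0.57, and was -0.02 without the hepcidin array numbered 4.

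**Figure D2:**
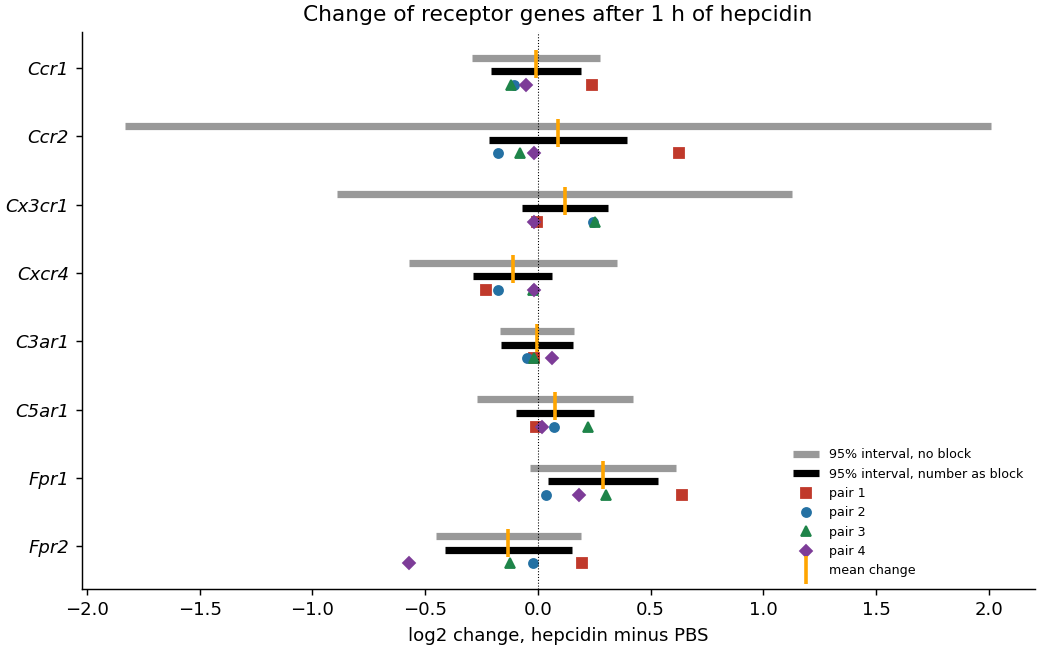
Log2 change of each receptor gene, hepcidin minus PBS, with the mean (orange), the 95% interval without a block (grey) and with the replicate number as a block (black), and the change in each same-numbered pair (coloured symbols). All 8 grey intervals span 0, and with the block that of Fpr1, from 0.05 to 0.53, does not.

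The spread among same-numbered pairs differed greatly between the receptors. A moderated F test in limma asked whether levels differed between the 4 numbers once treatment was in the fit, and 3 of 8 members passed over all genes, where 5.6% of genes did. They were Ccr2 (adjusted p 0.000527), Cx3cr1 (0.00119) and Cxcr4 (0.0156). C5ar1 missed the threshold at 0.0553, and Ccr1 (0.226), Fpr1 (0.293), Fpr2 (0.476) and C3ar1 (0.769) did not reach it. The 5.6% covers dim genes too. In a fit of only the 9274 genes with a mean of at least 6, a larger share passed, 2894 genes. Ccr2, Cx3cr1 and Cxcr4 all have such means. The SD of the 4 pair means was 1.56 for Ccr2, 0.81 for Cx3cr1 and 0.35 for Cxcr4, beside 0.11 for the median gene. For Ccr2, Cx3cr1 and Cxcr4 it was 4.27, 5.43 and 3.28 times the SD of the 4 changes with hepcidin. The ratio was 2.45 for C5ar1, 1.26 for C3ar1, 1.07 for Ccr1, 0.76 for Fpr1 and 0.53 for Fpr2. Over all genes the median SD of the changes was 0.17. The mean of a pair varies less than its difference even without a shared level, so low ratios do not show that the changes varied more.

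For Ccr2, Cx3cr1 and Cxcr4 most of that spread lay between number 1 and the rest. On number 1 Ccr2 was lower than on numbers 2 to 4 by a log2 difference of -3.09 ± 0.15 (SE of the fit), with means of 5.66 and 8.75. The level on number 1 lay under the 90th percentile of the background genes (6.20) and above their median (3.88). Whether the size of this difference was compressed there was not tested. Cx3cr1 differed by -1.54 ± 0.09, with means of 6.24 on number 1 and 7.78 on the rest, and 30 other genes were as low or lower. C5ar1 differed by -0.42 ± 0.09, and its pair means rose in steps, at 8.57, 8.82, 8.99 and 9.16 for numbers 1 to 4. Cxcr4 differed by 0.67 ± 0.09, with means of 9.65 on number 1 and 8.98 on the rest. For 4 of 8 members the number 1 arrays did not overlap the other 6, lower for Ccr2, Cx3cr1 and C5ar1 and higher for Cxcr4. This was so for 19.9% of all genes, 10.1% lower and 9.82% higher. In a sample of bulk RNA, fewer cells of a type and less RNA per cell cannot be told apart.

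For Ccr2, Cx3cr1 and Cxcr4 the numbers 2 to 4 differed less from each other than from number 1. For Ccr1 the largest difference lay between numbers 2 and 3, at 0.40 (SE 0.12). C5ar1 differed by -0.34 between numbers 2 and 4 and by -0.25 between numbers 1 and 2 (SE 0.11 each). Cx3cr1 was higher on number 4 than on number 3 by 0.65 and than on number 2 by 0.41 (SE 0.12 each), and Ccr2 was higher on number 4 by 0.33 and 0.41 (SE 0.19 each). Without both arrays numbered 1, none of the 8 members passed the limma test between numbers. The adjusted p was then 0.197 for Ccr2, 0.115 for Cx3cr1 and 0.379 for Cxcr4. The call of Cxcr4 was also lost on leaving out hepcidin array 1 (0.0623) or 4 (0.0525), or PBS array 1 (0.114) or 4 (0.0646).

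**Figure D3:**
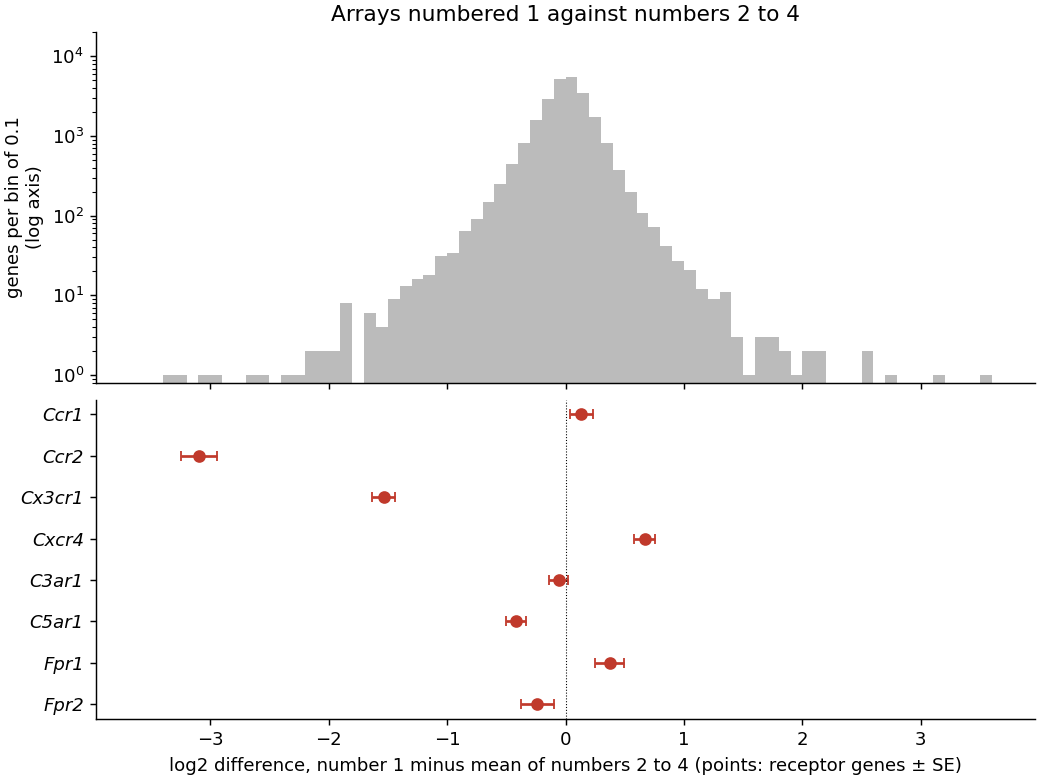
Difference in log2 value between the arrays numbered 1 and the mean of numbers 2 to 4; the upper panel counts all 24012 genes in bins of 0.1 on a log axis and the lower panel gives the receptor genes ± SE of the fit. Ccr2 at -3.09 lies in the far left tail, Cx3cr1 at -1.54, and Cxcr4 at 0.67 on the right.

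Most neutrophil and precursor markers moved with the same split, and monocyte and macrophage markers moved with it in part. Of 16 neutrophil and precursor markers, 11 were lower on both arrays numbered 1 without overlap, and the list averaged 5.16 to 5.21 there and 6.01 to 6.32 on the other 6 arrays. Only 7 of the 16 had a mean above the 90th percentile of the background genes. Ctsg, Ltf, S100a9 and Retnlg, all among the lower ones, stayed under it on every array. Csf3r was not lower, at 7.45 on number 1 and 7.25 on the rest. Of 10 monocyte markers 3 were lower and 2 higher without overlap. Among the lower were Ly6c2, at 7.03 on number 1 and 8.32 on the rest, and F13a1, at 7.86 and 9.40. The higher ones were Klf4, at 7.84 and 6.92, and Vcan, at 6.03 and 5.66, both in the same order. The monocyte list averaged 6.56 to 6.64 on number 1 and 6.68 to 6.94 elsewhere. Of 10 macrophage markers 5 were lower and 1 higher, the Fc receptor gene Fcgr1 by -1.87 and the scavenger receptor gene Marco by 1.20. Csf1r, the M-CSF receptor gene that defines the lineage, differed by -0.43, Adgre1 by -0.12 and Cd68 by 0.01. The defining neutrophil gene Ly6g stayed near background throughout, at 4.06 on number 1 and 4.16 on the rest. Lower on number 1 without overlap were 0 of 9 dendritic cell, 0 of 11 T and NK cell and 0 of 9 endothelial markers. The same count was 1 of 9 for mast cell, basophil and eosinophil markers, against 10.1% of all genes. For B cell markers it was 1 of 8, namely Cd79b, at 4.57 on number 1 and 5.62 on the rest. Higher without overlap were 1, 3, 1, 1 and 0 in the same order, against 9.82% of all genes. No marker is at 0 on this scale, and the part of these markers in the receptor differences was not tested. Between treatments the neutrophil list differed by -0.02 and the monocyte list by 0.04.

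**Figure D4:**
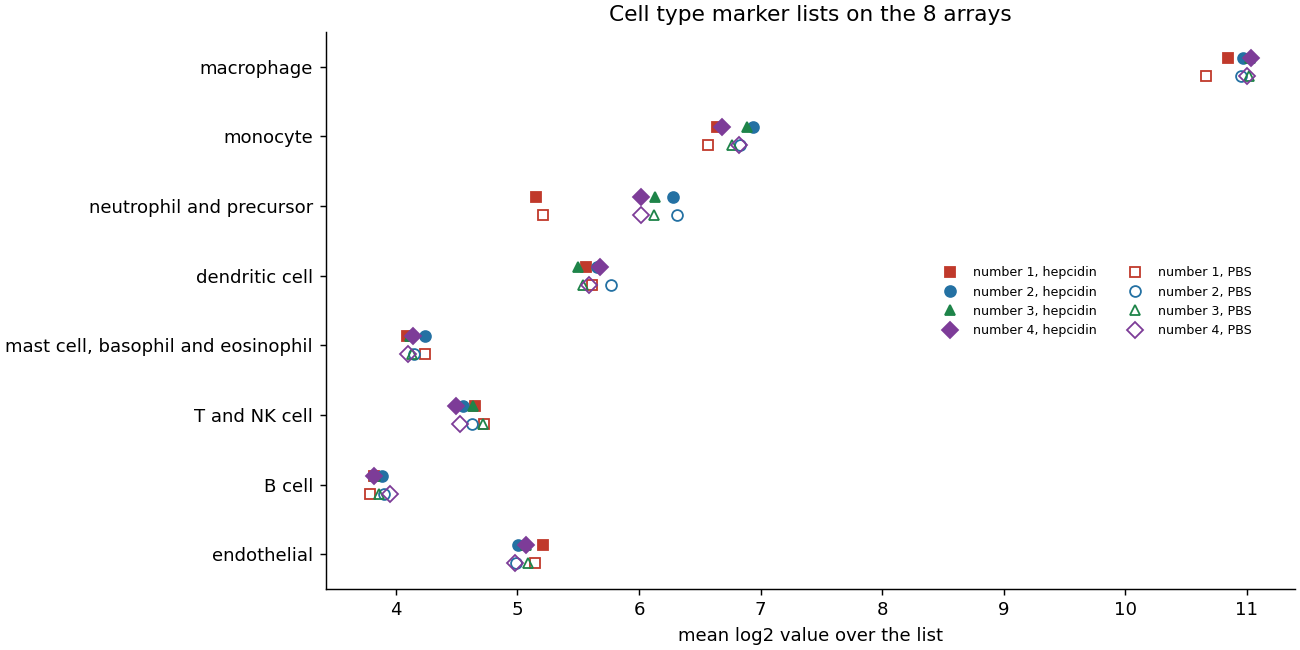
Mean log2 value of each cell type marker list on every array, filled symbols for hepcidin above open symbols for PBS, with colour and shape giving the replicate number. The neutrophil and precursor list is at 5.16 to 5.21 on number 1 and at 6.01 or more on every other array. The mean of the B cell list lies between 3.78 and 3.95 on all arrays, though its member Cd79b was lower on number 1.

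The genes most like Ccr2 and Cx3cr1 over the 8 arrays were found by the root mean square difference of log2 values centred on each gene's mean, among 8911 named genes with a mean of at least 6. Only these 2 receptors spanned at least 1 log2 unit, as did 5.33% of all genes. For Ccr2 the nearest were Ms4a6b, a gene of the membrane-spanning 4A family, at 0.19, and Aif1, which encodes the actin-binding macrophage protein IBA1, at 0.28, where the median gene was at 1.35. On number 1 and on the rest Ms4a6b averaged 5.28 and 8.51, and Aif1 4.61 and 7.21, with the values on number 1 again under the 90th percentile of the background genes. For Cx3cr1 the nearest were Sncaip, which encodes the α-synuclein partner synphilin-1, and Slamf9, a receptor gene of the SLAM family, each at 0.18, where the median gene was at 0.71. Both were highest on number 4, as Cx3cr1 was, with Slamf9 at 10.33 and 10.53 there. Arrays of the same number deviated together, so these distances rest in effect on 4 numbers.

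**Figure D5:**
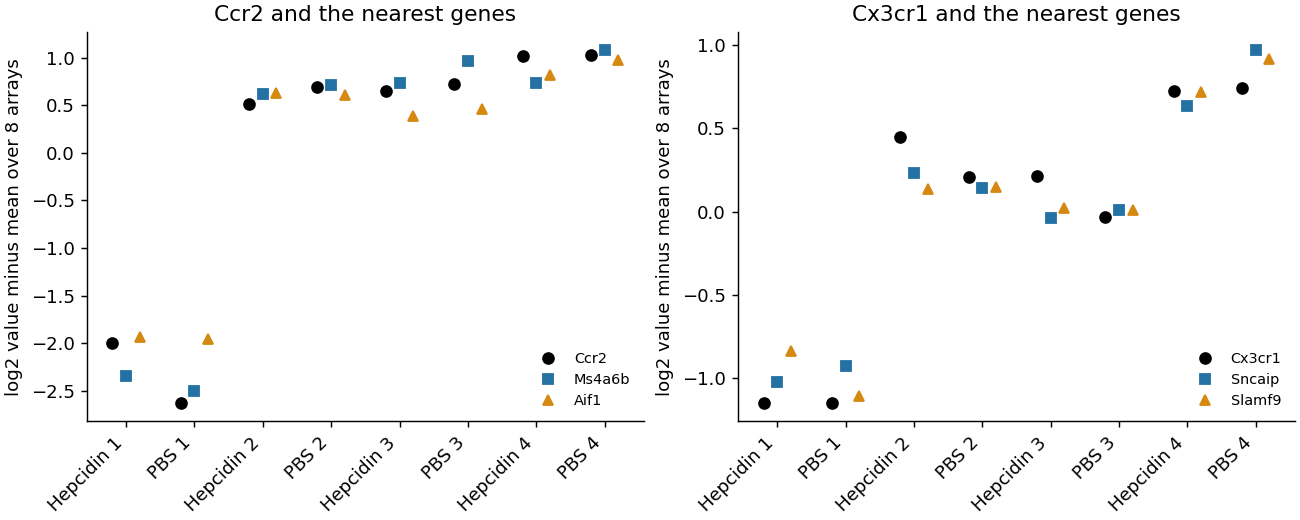
Log2 values minus each gene's mean over the 8 arrays for Ccr2 (left) and Cx3cr1 (right) and the 2 nearest genes of each; the arrays run by number with hepcidin before PBS. All 6 genes are lowest on the arrays numbered 1, and the 3 genes at the right are highest on number 4.

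Ligands, other receptors and signalling genes gave no call with hepcidin either, with or without the block. Errors after ± below are SE without the block. Over all genes the median change was 0.00095. An unadjusted p under 0.05 in limma was reached by 2.86% of them, or 4.91% with the block. The counts by direction below were not tested. Of 15 measured ligand genes of these receptors, 12 had a mean change above 0. At the adjusted threshold limma called 0, and the unadjusted p was under 0.05 for 1, or for 3 with the block (Ccl3, Ccl8 and Saa3, all higher). The smallest p was that of Ccl3, a CCR1 ligand, at 12.11 with hepcidin and 11.92 with PBS (0.19 ± 0.09, SE, adjusted p 1.00 from 0.999976, higher in 4 of 4 pairs). Ccl7, a CCR2 ligand, differed by 0.22 ± 0.20. Among 18 other chemokine receptor genes 8 were above and 10 below 0, with 1 at an unadjusted p under 0.05, or 2 with the block (Ccr8 and Ccrl2). Ccr8, at 3.88 with hepcidin and 3.60 with PBS, and Ackr4, a scavenger of CCL19 and CCL21, at 3.54 and 3.34, both lay at or under the background median.

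Among 17 other chemoattractant receptor genes 11 were above 0 and none passed, again with 1 at an unadjusted p under 0.05, or 2 with the block (Ptger4 and Gpr84). Ptger4, a receptor gene for prostaglandin E2, had 7.91 with hepcidin, against 7.52 with PBS, a difference of 0.38 ± 0.14 seen in 4 of 4 pairs. Gpr84, a receptor gene for medium-chain fatty acids, named after its values were seen, had the largest difference of the list, with 9.08 with hepcidin, against 8.42 with PBS (0.66 ± 0.36, and an SE of 0.19 with the block). Gpr1, related to the chemerin receptor gene Cmklr1, stood at 3.22 and 2.97, under the background median. The 24 genes of Gi signalling and migration had a median change of 0.02 with 17 above 0, and 0 of them had an unadjusted p under 0.05 in limma. In that list Vav1, which encodes an exchange factor for Rac, differed by 0.13 ± 0.09 and the G protein gene Gna15 by 0.19 ± 0.16. The 15 genes that end receptor signalling had a median of -0.01 and likewise none at an unadjusted p under 0.05. Rgs2, a regulator of G protein signalling, was at 11.23 with hepcidin and 11.37 with PBS, lower in 4 of 4 pairs, and the receptor kinase gene Grk6 differed by 0.10 ± 0.11.

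Between replicate numbers some of the other receptor genes passed, and these are named because of that test, after their values were seen. They were 2 of 18 other chemokine receptor genes and 6 of 17 other chemoattractant receptor genes, or 11.1% and 35.3%, where 5.6% of all genes passed. Above the 90th percentile of the background genes lay 1 of the 18 and 8 of the 17. In the fit of only genes with a mean of at least 6, 2894 of 9274 passed, so 35.3% is not set against a share for genes of like level. Ccr3, the eotaxin receptor gene that lies beside Ccr2, was lower on number 1 by -1.42 (adjusted p 0.00613 in limma), and Ccrl2, which binds chemerin without signalling, was higher by 1.01. C5ar2, the second C5a receptor gene and the neighbour of C5ar1, was lower by -0.77, and the oxysterol receptor gene Gpr183 by -1.31. The nucleotide receptor gene P2ry12 was lower by -1.12, P2ry6 by -0.42 and Cmklr1 by -0.61, while P2ry14 differed by 0.15.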

How the data were processed

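RNA of 8 samples was labelled with biotin for Affymetrix whole-transcript arrays, per the labels' protocols. The authors deposited log2 values. The submitters' processing notes name RMA and affy 1.36.1. For the probe set definition and genome build, the sources used here name none. RMA makes array distributions alike and compresses changes of dim genes. Values from 1.73 to 13.60 were used as deposited.

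Of 24973 probe sets, 24015 had 1 symbol in the platform annotation and 958 had none. Fpr1 was added by its gene number, and the brightest probe set was kept for 4 symbols, leaving 24012 genes. Of 201 list entries, 189 were measured, 1 under a newer symbol.

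Hepcidin was compared with PBS in limma 3.58.1 (R 4.3.3; lmFit, eBayes), and replicate numbers by a moderated F over 3 terms beside treatment, both adjusted over all genes by Benjamini-Hochberg, without a filter on low values. Equal numbers were taken to pair arrays because deviations from the group mean correlated, across genes, at 0.34 to 0.55 in the 4 same-numbered pairs and at -0.36 to 0.12 in the other 12. Named were all members, the 2 genes of each list with the smallest p, the 2 genes nearest to a member, and context genes. Members, lists and tests were chosen with earlier results of these data known. The fits were tested on simulated data. Alternatives were scaling, filters, variance models, array weights, blocks and leaving out arrays. Figures used matplotlib 3.10.9.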

Additional observations from a re-analysis of the deposited data

Results flagged for a closer look

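Within each group of 4 arrays, the lowest and highest value of each receptor gene was compared with its nearest neighbour. This gave 3 single values that stood apart among 16 groups of values. Chance gives about 1 in 20 groups, but the groups are not independent, because arrays of the same number deviated together. Both values of Ccr2 fall on number 1 and repeat the split by number given above. Ccr2 was at 5.98 on the hepcidin array numbered 1, a gap of 0.837 of the range of its group. It was at 5.35 on the PBS array numbered 1, a gap of 0.909 of the range. Fpr2 was at 4.79 on the PBS array numbered 1, a gap of 0.878 of the range, where the other 3 PBS arrays lay between 5.22 and 5.28. The hepcidin array with the same number had Fpr2 at 4.99, within the range of its group.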

How the results depend on the processing

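No receptor gene passed the threshold for hepcidin against PBS in any of 142 alternative fits of single members, and the smallest adjusted p in limma was 0.951. Over all genes the count of 0 became 3 with genes of a mean of at least 6, 1 with the replicate block, 5 with the replicate block as a random term, 1 with the block and both arrays numbered 1 left out, and 0 to 2 when single arrays were left out. None of these genes was a receptor gene described here. The 3 were Nfkbie, Tnf and Nfkbiz and the 1 was Cxcl2, all on the list of NF-kB feedback genes, as were 4 of the 5. The sign of small changes turned in 25 fits: Ccr1 was at 0.0069 with median-centred arrays, C3ar1 at 0.012 with median-centred arrays and at 0.011 with renewed quantile normalization, and Ccr2 at -0.094 with array weights. Without both arrays numbered 1, Ccr2 was at -0.0896 and C3ar1 at 0.00035, each with and without the block. When single arrays were left out the changes ran from -0.084 to 0.078 for Ccr1, -0.77 to 0.77 for Ccr2, -0.24 to 0.52 for Cx3cr1, -0.26 to 0.075 for Cxcr4, -0.039 to 0.020 for C3ar1, -0.014 to 0.20 for C5ar1, 0.14 to 0.36 for Fpr1 and -0.25 to -0.020 for Fpr2. Between numbers, 1345 genes passed, against 2894 of 9274 with genes of a mean of at least 6, 2847 under a robust fit with a variance trend, 508 to 827 when single arrays were left out and 166 without both arrays numbered 1. Of the members 3 passed, 2 to 3 when single arrays were left out and 0 without both arrays numbered 1. C5ar1 passed as well among genes of a mean of at least 6 (0.00689), which leaves out Fpr1 and Fpr2, and under the robust fit with a variance trend (0.00485). Causes other than fewer arrays or genes were not tested. The SE of Ccr2 was 0.13 with the replicate block and 0.86 without it, and the block changed no call of a member. The number of arrays limits precision. Fpr1 and Fpr2 had signal near background, and whether this affected their precision was not tested. Without the block their SE was 0.145 each, between 0.074 for C3ar1 and 0.86 for Ccr2. With the block it was 0.105 for Fpr1 and 0.122 for Fpr2, between 0.069 for C3ar1 and 0.13 for Ccr2.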

Other observations

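Ligand and signalling genes of these receptors also differed between replicate numbers in limma, 3 of 15 ligands, 2 of 24 Gi signalling and migration genes and 2 of 15 genes that end receptor signalling, where 5.6% of all genes did. The share in the Gi list, 8.33%, was near that of all genes. All 24 genes of that list lay above the 90th percentile of the background genes. In the fit of only genes with a mean of at least 6, 2894 of 9274 passed. The genes are named after their values were seen. Saa3, an acute-phase gene whose protein is a ligand of the formyl peptide receptor FPR2, was higher on number 1 than on numbers 2 to 4, at 8.20 and 6.01 (adjusted p 0.000262). Ccl8 was higher there, at 6.61 and 5.89, and the CCR2 ligand gene Ccl12 was lower, at 4.28 and 6.31. Dock2, which encodes an activator of Rac in leukocyte migration, was at 10.28 on number 1 and at 8.84 on the rest, and the kinase gene Grk5 at 7.80 and 7.09. Rgs16 was lower on number 1, at 5.45 against 6.56.

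Ligand genes for several members had signal above the 90th percentile of the background genes in the same cells, among them Ccl3 and Ccl9 for CCR1, Ccl2 and Ccl7 for CCR2 and Anxa1 for the formyl peptide receptors, at 12.11, 12.73, 10.83, 10.45 and 12.33 with hepcidin and 11.92, 12.68, 10.67, 10.22 and 12.30 with PBS. The ligand genes of CXCR4 and CX3CR1, Cxcl12 and Cx3cl1, were at 4.21 and 5.01 with hepcidin and 4.21 and 5.06 with PBS, under that percentile.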
